A study of Mus musculus with 14 samples.

Results

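The 10 genes described here are Cd209a, Zbtb46, Batf3, Ccr7, Cd80, Cd86, Cd83, Cd40, Fscn1 and Siglech, a set of dendritic cell and costimulation genes chosen by name. The choice was made with earlier results of these data known. They are 10 of the 55367 gene symbols in each of 2 deposited count tables, and all 10 were found in both. Messenger RNA was sequenced from cultures of mouse bone marrow cells that were depleted of mature lineages, labelled wild-type, and grown with the cytokines SCF, IL6 and IL3. Cells of the first experiment carried a lentivirus with luciferase (control, 3 libraries) or with SETBP1-D868N (3 libraries), a mutant form of a nuclear protein that binds SET. In the second experiment all cells, the controls included, carried SETBP1-D868N and received the solvent DMSO (4 libraries) or 2.5 µM PF-9363 (4 libraries) over 4 days, an inhibitor of MYST histone acetyltransferases. Transgenes were delivered in the pSMAL vector, and the promoter that drives them, the age and the strain of the mice are not given in the sources used here. Nothing in the labels says whether replicates came from separate animals or cultures, so p-values measure the spread between these libraries, which may be technical.

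Dendritic cells take up antigen and present it to T cells. Conventional dendritic cells are marked by Zbtb46, and their cross-presenting branch depends on the transcription factor Batf3. Plasmacytoid dendritic cells, which make type I interferon, carry Siglech. On activation a dendritic cell raises the costimulatory ligands Cd80 and Cd86, which engage CD28 on T cells, together with Cd83 and the TNF receptor family member Cd40, and it gains the chemokine receptor Ccr7 and the actin-bundling protein Fscn1 for migration to lymph nodes. Macrophages, B cells and other myeloid cells also express several of these genes, Cd86 and Cd40 among them, so a bulk level does not name the cell that made it.

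The first experiment was the deeper, at 60147266 to 68730322 counts per library, against 7083731 to 10359093 for the second. At this depth a gene with 0 counts may stand at up to 0.0436 to 0.0499 CPM (the usual depth-scaled count) in the first and 0.290 to 0.424 CPM in the second, taken as 3 counts of the unscaled library total and covering counting error only. Luciferase library 1 differed from libraries 2 and 3 by a chi-square per degree of freedom of 27.0 and 27.7 over genes, against 2.28 between libraries 2 and 3, and its omission is given beside the first result. Setbp1 itself had 5 to 6 counts in luciferase libraries, 20 to 24 in SETBP1-D868N libraries and 0 to 2 in the second experiment, so it checked the labels of the first experiment only. Markers of stem and progenitor cells, the labelled population, summed to 305.6 to 312 CPM with luciferase and 246 to 265 CPM with SETBP1-D868N, beside 25061 to 26090 and 17184 to 19719 CPM for 10 genes of the neutrophil line. The cultures thus held RNA of maturing myeloid cells besides progenitors.

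Promoter sequences are shown for 3 members, Cd80 as a costimulatory ligand, Batf3 as a lineage factor, and Zbtb46 because it marks conventional dendritic cells. They come from RefSeq on GRCm38.p6, run from 250 bases before to 50 bases after the annotated start of 1 transcript, and read 5′ to 3′ on the gene's strand. Of the 10 members, 6 had an entry in the promoter table. Capitals mark TGANTCA, the letters of an AP-1 type element, to which BATF3 binds as a partner of JUN proteins.
Cd80, chr16:38458683-38458982, plus strand: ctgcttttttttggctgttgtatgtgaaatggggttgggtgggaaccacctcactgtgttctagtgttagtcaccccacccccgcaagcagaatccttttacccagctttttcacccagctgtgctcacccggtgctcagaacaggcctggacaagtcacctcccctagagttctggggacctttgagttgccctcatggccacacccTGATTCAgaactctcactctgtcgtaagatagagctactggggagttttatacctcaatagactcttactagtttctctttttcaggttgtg
Zbtb46, chr2:181424339-181424638, minus strand: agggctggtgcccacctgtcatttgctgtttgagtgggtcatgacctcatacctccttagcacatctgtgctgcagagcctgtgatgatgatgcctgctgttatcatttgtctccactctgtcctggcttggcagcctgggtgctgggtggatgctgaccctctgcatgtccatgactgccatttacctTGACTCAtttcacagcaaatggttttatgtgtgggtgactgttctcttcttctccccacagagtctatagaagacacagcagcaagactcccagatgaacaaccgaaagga
Batf3, chr1:191098164-191098463, plus strand: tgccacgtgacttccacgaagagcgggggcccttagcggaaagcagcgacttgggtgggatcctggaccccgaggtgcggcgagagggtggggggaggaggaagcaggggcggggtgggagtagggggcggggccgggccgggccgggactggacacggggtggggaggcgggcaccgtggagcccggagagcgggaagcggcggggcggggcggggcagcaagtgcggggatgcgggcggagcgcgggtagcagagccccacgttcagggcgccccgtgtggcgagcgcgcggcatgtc

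On both strands, 4 letter patterns were searched in the 6 promoters, namely TGANTCA, GGGANTTTC (NF-kB type), GAAANNGAA (interferon response type) and GAGGAAGT (ETS or PU.1 type). The starts of the 3 sequences shown lie downstream of the outermost start of the gene in GENCODE M21, the one of Zbtb46 far inside the gene, so positions refer to an internal transcript start. The AP-1 letters occurred at −42 to −36 from the start used for Cd80 (TGATTCA) and at −61 to −55 from that used for Zbtb46 (TGACTCA), and TGANTCA is found in 7.81% of all 32851 promoters of the table. No other match was found in the windows of Cd80, Zbtb46, Batf3, Fscn1, Cd209a and Siglech, while 1.11%, 8.56% and 3.20% of all promoters hold the other 3 patterns in the order given. The patterns shared no bases in these matches. The Batf3 window was rich in G and C (75.7%, against 49.7% for Cd80 and 50.7% for Zbtb46).

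The first comparison set SETBP1-D868N against luciferase, to find transcripts that change with the mutant protein. Of the 10 genes, 8 were lower with SETBP1-D868N than with luciferase, by 1.47-fold (Batf3) to 2.65-fold (Fscn1), and Cd209a and Siglech did not pass the test. A call means an adjusted p under 0.05 in edgeR's quasi-likelihood test over all 15794 genes tested, and 22.7% of those genes were called lower, 24.5% higher and 47.2% in either direction. When libraries were scaled by their totals alone, 4905 genes were higher and 2997 lower, in place of 3869 and 3579, and the 8 calls stayed in place, with Cd86 and Zbtb46 then just short of 2-fold. At least 2-fold lower were 4 of the 10 (Fscn1, Ccr7, Cd86 and Zbtb46), against 2.48% of all genes tested and 1.34% at least 2-fold higher. The median log2 fold change of the 10 was −0.93, beside 0.0043 over all genes tested. In 9 of the 10 the groups did not overlap, as in 56.7% of all genes. Without luciferase library 1, 9 of the 10 were called lower. In bulk RNA, fewer cells of a type and less RNA per cell cannot be told apart.

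**Figure D1:**
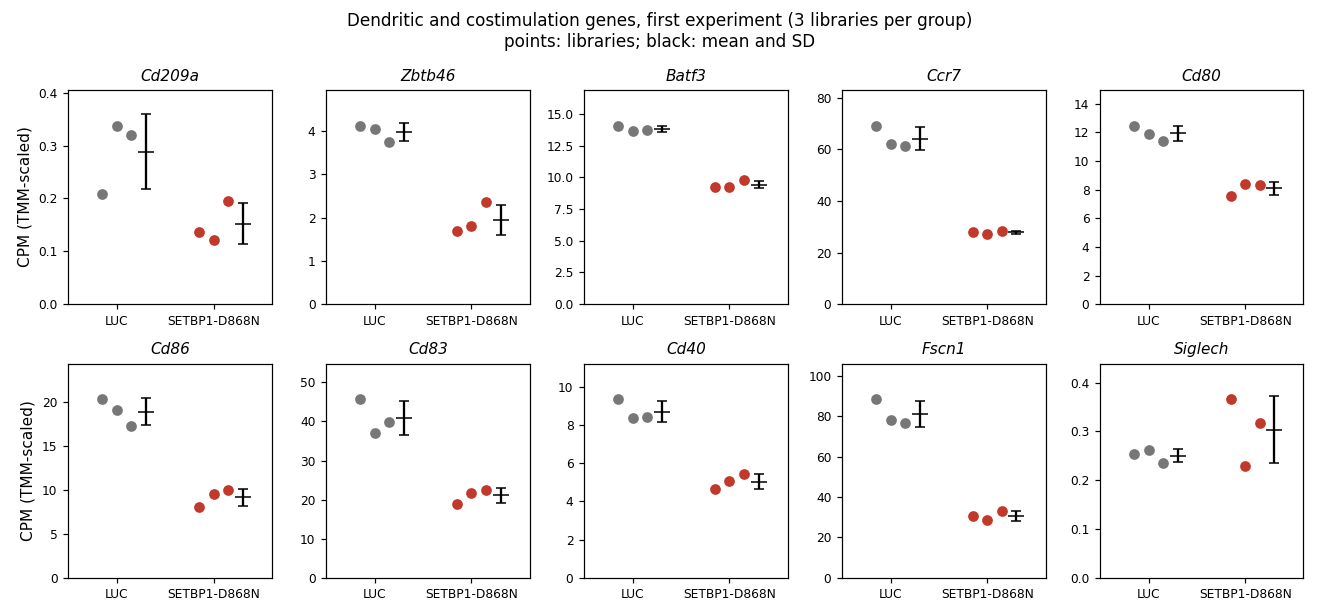
CPM (TMM-scaled, y axis, from 0) of the 10 genes in each luciferase (LUC) and SETBP1-D868N library of the first experiment, with mean and SD in black. In every panel but that of Siglech the luciferase libraries lie above the SETBP1-D868N libraries.

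The genes of migration were the most abundant members per length and fell most. Fscn1 (chr5:142960343-142973185, plus strand), which bundles actin in the processes of mature dendritic cells, stood at 88.3, 78.3 and 76.8 CPM in luciferase libraries 1 to 3 and at 30.5, 28.4 and 33.1 CPM in SETBP1-D868N libraries 1 to 3. The lowest luciferase library was more than double the highest SETBP1-D868N library. The means were 81.1 ± 6.29 and 30.7 ± 2.34 CPM (SD, n = 3 each), a log2 change of −1.40 (edgeR, SE 0.073 and adjusted p 5.13e-06), and only 0.848% of tested genes had a lower log2 fold change. Ccr7 (chr11:99144196-99155077, minus strand), the receptor for CCL19 and CCL21, held 69.3, 61.9 and 61.4 CPM with luciferase and 27.9, 27.3 and 28.5 CPM with SETBP1-D868N. Its SETBP1-D868N libraries lay within about 1 CPM of each other, far below all luciferase libraries. The log2 change was −1.20 (edgeR, SE 0.047 and adjusted p 8.91e-09).

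Among the surface genes of costimulation, Cd86 and Cd83 fell by about as much as each other and Cd80 by less. Cd86 (chr16:36603869-36666081, minus strand), a ligand of CD28 and CTLA4, went from 20.3, 19.1 and 17.3 CPM to 8.03, 9.49 and 9.94 CPM. Its groups were separated by more than the range of either, with a log2 change of −1.05 (edgeR, SE 0.085 and adjusted p 4.73e-06). Cd80 (chr16:38455561-38496335, plus strand), the other B7 ligand of those receptors and a neighbour on chromosome 16, held 12.5, 11.9 and 11.4 CPM with luciferase and 7.56, 8.39 and 8.32 CPM with SETBP1-D868N, a log2 change of −0.56 (edgeR, SE 0.065 and adjusted p 2.11e-05). Cd83 (chr13:43784775-43803132, plus strand), which stabilises MHC class II and CD86 at the surface, stood at 45.7, 37.2 and 39.8 CPM against 18.9, 21.8 and 22.5 CPM. Here luciferase library 1 was the highest, and the other luciferase libraries also exceeded all SETBP1-D868N libraries. The log2 change was −0.96 (edgeR, SE 0.098 and adjusted p 2.60e-04). Cd40 (chr2:165055627-165072948, plus strand), the receptor through which T cells license dendritic cells, fell from 9.35, 8.35 and 8.42 CPM to 4.63, 5.08 and 5.42 CPM, a log2 change of −0.79 (edgeR, SE 0.083 and adjusted p 1.01e-05).

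Of the lineage factors, Zbtb46 was near 2-fold lower and Batf3 less changed. Zbtb46 (chr2:181387762-181459426, minus strand), a repressor found in conventional dendritic cells and their committed precursors, held 4.12, 4.05 and 3.74 CPM with luciferase and 1.69, 1.80 and 2.35 CPM with SETBP1-D868N. All SETBP1-D868N libraries were lower, with a log2 change of −1.03 (edgeR, SE 0.13 and adjusted p 4.68e-05). Batf3 (chr1:191097847-191108945, plus strand), needed for cross-presenting dendritic cells, stood at 14.1, 13.6 and 13.7 CPM against 9.23, 9.25 and 9.75 CPM. Its libraries agreed closely within each group, and the log2 change was −0.55 (edgeR, SE 0.054 and adjusted p 5.38e-06).

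The remaining surface markers were close to the limit of detection. Cd209a (chr8:3743397-3748984, minus strand), a DC-SIGN type lectin of monocyte-derived dendritic cells, had 14, 22 and 19 counts in luciferase libraries and 9, 8 and 13 in SETBP1-D868N libraries. The groups did not overlap, and the log2 fold change of −0.91 (SE 0.36) missed the threshold, with an edgeR adjusted p of 0.0529 and a range of 0.0331 to 0.165 over 14 alternatives. Siglech (chr7:55768178-55778925, plus strand), the plasmacytoid surface lectin, had 17, 17 and 14 counts against 24, 15 and 21. Its groups overlapped, and its log2 fold change was 0.28 with a 95% interval of −0.37 to 0.93 (edgeR adjusted p 0.477).

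The second comparison set PF-9363 against DMSO in SETBP1-D868N cells, to find transcripts that respond to MYST inhibition. All 7 members that passed the expression filter were higher with PF-9363, by 2.47-fold (Fscn1) to 14.8-fold (Cd86), and each changed at least 2-fold. Passing through the high group alone is enough for the filter. Cd40, Batf3 and Cd83, with as few as 2, 7 and 6 counts in a DMSO library, would not have passed on the DMSO group alone. The count of 7 is thus partly set by the filter. It also does not speak for the 3 members left out, which were Zbtb46, Cd209a and Siglech. Of all 13456 genes tested, 36.6% were called higher, 39.4% lower and 76.0% in either direction, while 15.8% were at least 2-fold higher and 18.1% at least 2-fold lower. When libraries were scaled by their totals alone, 3775 genes were higher and 6653 lower, in place of 4921 and 5307, and the median gene shifted by −0.23 on the log2 scale. Under that scaling the 7 members kept their calls, with log2 fold changes of 1.07 (Fscn1) to 3.66 (Cd86). Groups did not overlap in the 7 tested members nor in Zbtb46, against 70.3% of all genes tested. The median log2 fold change of the 7 was 2.79, beside −0.038 over all genes tested.

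**Figure D2:**
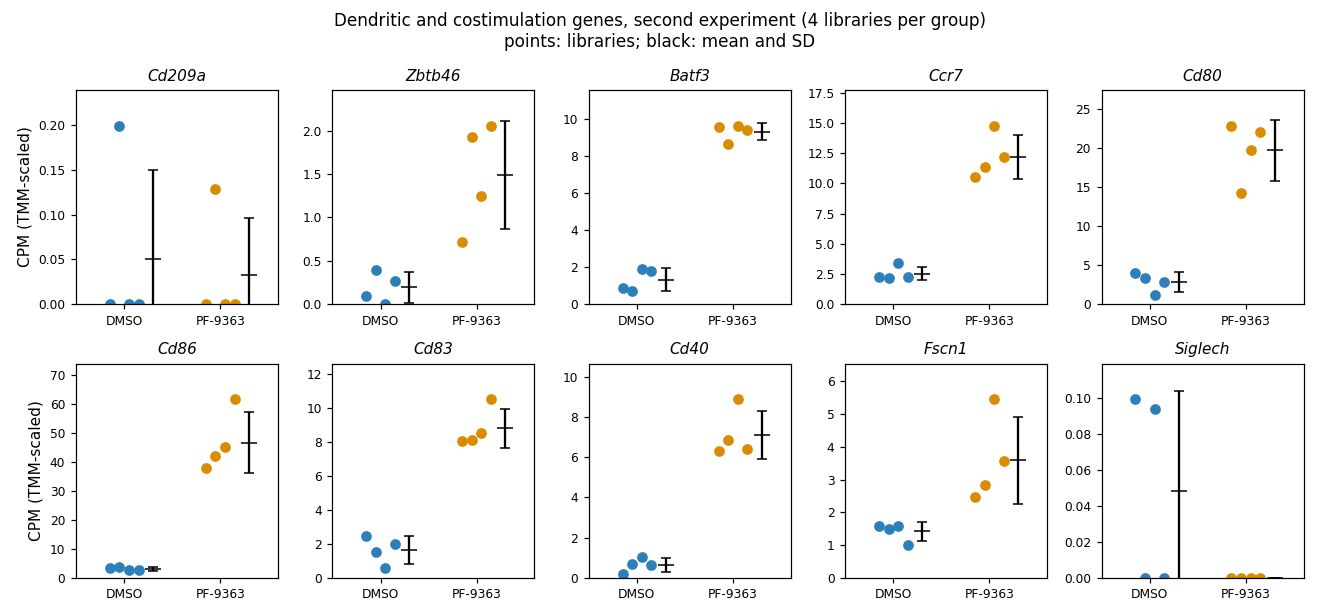
CPM (TMM-scaled, y axis, from 0) of the 10 genes in each DMSO and PF-9363 library of the second experiment, with mean and SD in black. In 8 panels every PF-9363 library lies above every DMSO library, while Cd209a and Siglech sit at or near 0 in both groups.

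Cd86 and Cd40 changed most. Cd86 held 3.47, 3.89, 2.53 and 2.72 CPM in DMSO libraries 1 to 4, and the PF-9363 libraries, in the same order, held 37.8, 42.0, 45.1 and 61.6 CPM. Even the lowest PF-9363 library was far above all DMSO libraries. The means were 3.15 ± 0.638 and 46.6 ± 10.4 CPM (SD, n = 4 each), a log2 change of 3.89 (edgeR, SE 0.17 and adjusted p 7.59e-15), and 99.5% of tested genes had a lower log2 fold change. Cd80 went from 3.97, 3.39, 1.12 and 2.81 CPM to 22.9, 14.2, 19.8 and 22.0 CPM. Its DMSO library 3 was the lowest and its PF-9363 library 2 the lowest of the treated libraries, without overlap, and the log2 change was 2.81 (edgeR, SE 0.24 and adjusted p 1.53e-08). Cd40 rose from 0.198, 0.698, 1.03 and 0.635 CPM, which are only 2 to 11 counts per library, to 6.28, 6.83, 8.87 and 6.40 CPM. The log2 change was 3.42 (edgeR, SE 0.31 and adjusted p 7.74e-11). Cd83 rose from 2.48, 1.50, 0.562 and 2.00 CPM to 8.03, 8.12, 8.56 and 10.5 CPM, a log2 change of 2.43 (edgeR, SE 0.27 and adjusted p 3.84e-09).

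Of the migration pair, which had the lowest log2 changes with SETBP1-D868N, Fscn1 showed the smallest change of the 7 with PF-9363, and Ccr7 did not differ from Cd83 beyond their SEs. Ccr7 held 2.28, 2.20, 3.37 and 2.27 CPM with DMSO and 10.5, 11.3, 14.8 and 12.1 CPM with PF-9363, a log2 change of 2.25 (edgeR, SE 0.20 and adjusted p 2.80e-11). Fscn1 held 1.59, 1.50, 1.59 and 0.998 CPM with DMSO and 2.47, 2.84, 5.45 and 3.58 CPM with PF-9363. The treated libraries of Fscn1 were spread more widely than the DMSO libraries, and all lay above them. Its log2 change was 1.30 (edgeR, SE 0.32 and adjusted p 5.70e-04), from 11 to 17 counts per DMSO library.

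Both lineage factors were higher with PF-9363 as measured by the tests open to them. Batf3 rose from 0.892, 0.698, 1.87 and 1.81 CPM to 9.58, 8.64, 9.65 and 9.44 CPM, and its treated libraries were close together. The log2 change was 2.79 (edgeR, SE 0.25 and adjusted p 5.99e-11). Zbtb46 had 1, 4, 0 and 3 counts in DMSO libraries and 7, 15, 8 and 19 in PF-9363 libraries, or 0.0992, 0.399, 0 and 0.272 CPM against 0.721, 1.93, 1.25 and 2.06 CPM. The 0 in DMSO library 3 allows up to 0.305 CPM. A two-sided exact permutation test of its mean CPM gave p = 0.0286, the smallest that 4 against 4 libraries allow. When the expression filter was dropped, edgeR gave it a log2 fold change of 2.85 (SE 0.63, adjusted p 2.32e-05). That fit gave every tested member a smaller adjusted p than the main fit, for Cd86 1.12e-162 (edgeR) in place of 7.59e-15. The unfiltered p-value of Zbtb46 is therefore uncertain, and it rests on 0 to 4 counts per DMSO library. Cd209a had 2 counts in DMSO library 2, 1 in PF-9363 library 2 and none elsewhere, and Siglech had 1 count each in DMSO libraries 1 and 3 and none elsewhere. At this depth no difference was detectable for these genes.

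**Figure D3:**
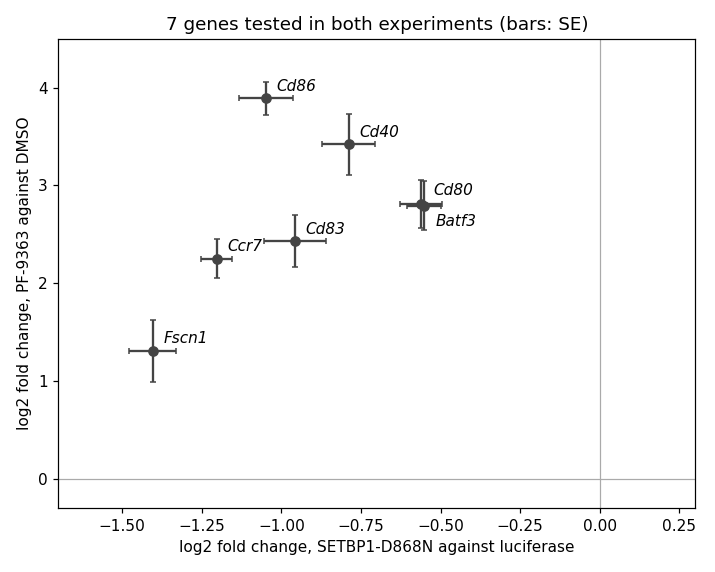
Log2 fold change with SETBP1-D868N against luciferase (x axis) and with PF-9363 against DMSO (y axis) for the 7 members tested in both experiments, with bars of 1 SE. All 7 lie at negative x and positive y, with Fscn1 at −1.40 and 1.30, and Cd86 at −1.05 and 3.89.

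Of the 7 members tested in both experiments, 7 were lower with SETBP1-D868N and higher with PF-9363, as were 2084 (16.8%) of 12376 genes tested in both. For Cd40, Batf3 and Cd83 the limit set by the filter in the second experiment applies here too. The experiments share no library. The order of the changes differed between them. Fscn1 and Ccr7 had the largest falls, Fscn1 the smallest rise, Cd80 and Batf3 the smallest falls, and Cd86 and Cd40 the largest rises. Cd80 and Batf3 were each other's nearest gene among 9879 candidates by the distance between their pairs of log2 fold changes (0.022), followed by Npl for Cd80 (0.055) and the macrophage growth factor receptor Csf1r for Batf3 (0.050). That closeness is within the error of the changes and rests on the libraries used, since without DMSO library 2 the log2 changes with PF-9363 were 2.58 for Batf3 and 2.91 for Cd80, and without DMSO library 3 the change of Cd80 was 2.54, below that of Batf3. By the same measure Cd40 lay closest to Relb (0.053), an NF-kB subunit, and then to P2ry6 (0.067). These distances are far below the SE of Cd40 with PF-9363 (0.31). Its log2 change was 3.13 without DMSO library 1 and 3.73 without DMSO library 3. Fscn1 lay closest to Arg1 (0.052) and Asprv1 (0.091), Cd83 to Stard9 (0.026) and Tmtc2 (0.063), Ccr7 to Ahnak (0.074) and Igfbp5 (0.19), and Cd86 to Anpep (0.22) and Tlr2 (0.22). For Fscn1, Cd83 and Ccr7 the SEs with PF-9363 (0.32, 0.27 and 0.20) likewise exceed the distances given. Candidates reached 5 CPM in the mean of whichever group was higher, in each comparison, and the distance is a description.

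Ratios of counts inside a library do not depend on scaling, and were taken for 2 pairs of members that were chosen after their values were seen. The ratio of Cd86 to Cd80 counts was 1.63, 1.61 and 1.51 with luciferase and 1.06, 1.13 and 1.20 with SETBP1-D868N. With DMSO it was 0.875, 1.15, 2.25 and 0.968, and with PF-9363 1.65, 2.96, 2.28 and 2.80, so DMSO library 3 fell within the treated range. The ratio of Fscn1 to Ccr7 counts was 1.25 to 1.28 with luciferase and 1.04 to 1.16 with SETBP1-D868N, and it was 0.440 to 0.696 with DMSO and 0.235 to 0.368 with PF-9363. Two-sided exact permutation tests gave p = 0.1 for each pair in the first experiment, the smallest that 3 against 3 libraries allow, and p = 0.0571 (Cd86 to Cd80) and 0.0286 (Fscn1 to Ccr7) in the second. After Benjamini-Hochberg adjustment over the 4 tests each had an adjusted p of 0.1. With these group sizes no outcome could have brought an adjusted p under 0.05, so the adjusted values say nothing for or against a difference.

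Levels of different genes were compared as CPM per kilobase of merged exon in GENCODE M21. With luciferase the order was Ccr7 (32.5 ± 2.21), Fscn1 (26.9 ± 2.09), Cd83 (15.9 ± 1.69), Batf3 (8.65 ± 0.146), Cd86 (5.17 ± 0.416), Cd80 (3.22 ± 0.142) and Cd40 (2.56 ± 0.163 CPM per kilobase, SD, n = 3), and libraries of neighbouring genes in this order did not overlap. Zbtb46 (0.467), Cd209a (0.182) and Siglech (0.0739) were far lower. The order was the same with SETBP1-D868N, from 14.1 ± 0.296 for Ccr7 to 1.48 ± 0.116 for Cd40, though Cd86 and Cd80 then overlapped, as did Cd209a and Siglech. In DMSO libraries the mean of Ccr7 was again the highest (1.28 ± 0.285, n = 4), though its libraries overlapped those of Batf3, and Cd86, Batf3, Cd80 and Cd83 at 0.635 to 0.861 did not differ beyond their spread. With PF-9363 Cd86 led at 12.7 ± 2.85, above Ccr7 (6.17 ± 0.937), Batf3 (5.84 ± 0.293) and Cd80 (5.32 ± 1.06), whose libraries overlapped. The experiments differ in library kit, input and depth and were scaled separately, so no test was made between SETBP1-D868N and DMSO libraries, although both hold SETBP1-D868N cells without inhibitor. They also differ in which genes have no count, genes of chromosome Y among them, as given under other observations.

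**Figure D4:**
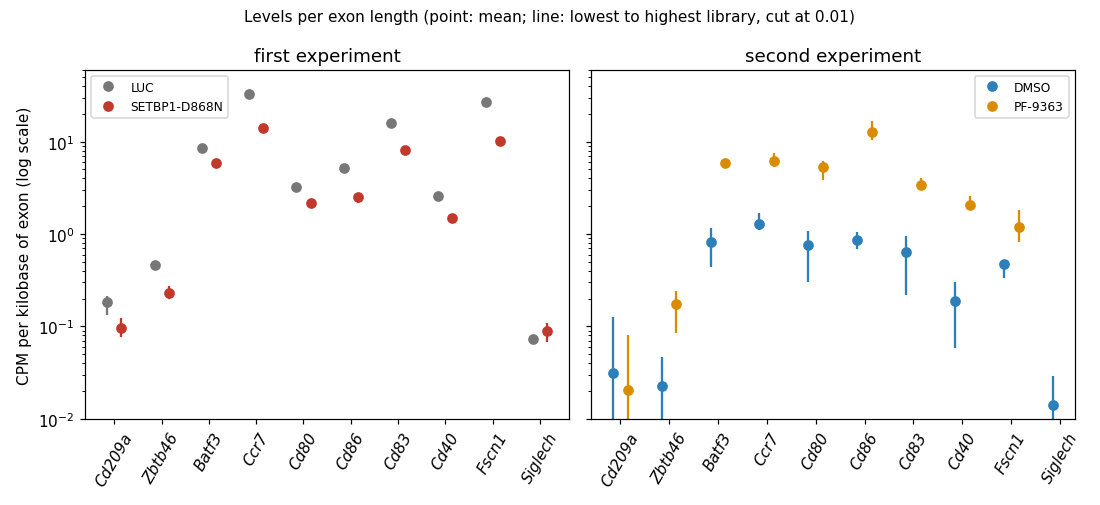
Level per kilobase of exon (CPM per kilobase, log axis) of the 10 genes by group, with the mean as a point and the lowest to highest library as a line. The highest mean is that of Ccr7 in the luciferase, SETBP1-D868N and DMSO groups, where it overlaps Batf3 with DMSO, and that of Cd86 in the PF-9363 group, and the mean of 0 for Siglech with PF-9363 is not drawn.

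Other dendritic cell genes were counted in lists of names that were chosen with earlier results of these data known. With SETBP1-D868N, 12 of 12 pan-dendritic genes were lower (median log2 fold change −0.89), led by the MHC class II genes H2-Eb1 (175 ± 9.02 to 84.0 ± 4.59 CPM, −1.05) and H2-Ab1 (272 ± 5.595 to 132 ± 8.20 CPM, −1.05). Of 17 genes of mature dendritic cells, 14 were lower (median −0.80), such as the chemokine Ccl5 (−1.19) and Cd200 (−1.13), and the tetraspanin Cd63 was higher by 0.095. Among genes of cross-presenting dendritic cells (cDC1), 6 of 11 tested were lower and 5 not called (median −0.36), with the integrin Itgae at −1.29 and the amidase Naaa at −0.46. Of the genes of the cDC2 branch, 9 of 10 tested were lower (median −0.39), among them Cd7 (−1.06) and the lectin Clec10a (−0.84). The plasmacytoid list was mixed, with 5 of 11 tested lower, such as Spib (−0.96) and Tlr9 (−0.80), and 3 higher, such as Runx2 (0.56) and Tcf4 (0.27), the lineage factor of these cells. The 22.7% and 24.5% of all genes called lower and higher are the background for these counts. Given how the lists were chosen, a count above the background is a description and not a test, here and in the lists below.

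With PF-9363 the lists moved the other way for most tested members, against a background of 36.6% of genes called higher and 39.4% lower. Some list genes passed the filter only through their PF-9363 libraries, such as Spib (2 to 6 counts per DMSO library) and Slamf1 (2 to 10). List counts and medians with PF-9363 are thus partly set by the filter, here and in the lists below. Of the mature dendritic list 12 of 14 tested were higher (median 1.56), among them the cytokine receptor Il7r (11.6 ± 1.06 to 83.0 ± 13.8 CPM, 2.83) and Nfkb2 (2.46), while Il15ra was lower (−2.13). Pan-dendritic genes were divided, with 6 of 10 tested higher and 2 lower (median 1.05), led by Relb (4.68 ± 1.08 to 49.5 ± 5.88 CPM, 3.40) and the integrin Itgax (2.94), and Flt3, the receptor for the growth factor that dendritic precursors need, was lower (2.66 ± 0.982 to 0.703 ± 0.290 CPM, −1.86). In the cDC1 list of 12 genes, 7 were tested and 6 of these were higher (median 0.49), with Naaa at 3.10 and Itgae at 1.54. That count holds Snx22 (0.21), of whose exons 28.5% overlap Ppib on the other strand, so its call is uncertain. The cDC2 list, also of 12 genes, had 6 of 7 tested higher and 1 lower (median 1.03), with Klf4 at 3.62 and Sirpa at 1.90. Of 8 plasmacytoid genes tested 6 were higher (median 1.54), with Spib at 3.15 and Tlr7 at 2.31, and Tcf4 was lower at −2.09. A bulk level does not name the cell that made it, so these counts do not show a rise of any dendritic branch. The receptor Xcr1, which defines cDC1 cells, was near 0 throughout, with 1 to 8 counts per luciferase library, 0 to 1 with SETBP1-D868N, 1 to 4 with DMSO and 1 in every PF-9363 library.

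The ligands and relay genes around the members were counted in the same way. Of the other costimulatory and coinhibitory ligands, 8 of 13 tested were lower with SETBP1-D868N (median −0.30), such as Cd276 (−1.03) and Slamf1 (−0.89), and Lgals9 (0.25) and Cd48 (0.23) were higher. With PF-9363, 9 of 12 tested were higher (median 0.86), including Slamf1 (3.35) and the PD-1 ligand Cd274 (40.2 ± 7.36 to 327 ± 51.0 CPM, 3.02), and Nectin2 was lower (−1.42). In the relay from CD40 to NF-kB, 6 of 13 genes were lower with SETBP1-D868N (median −0.077), led by the kinase Map3k14 (−0.77) and the adaptor Traf5 (−0.65). With PF-9363, 10 of 13 were higher (median 0.90), with Traf5 at 2.72 and the inhibitor Nfkbie at 2.34, while Traf6, another adaptor, was lower at −0.83. A partner list mixed ligands, receptors and binding partners of the members with family relatives of them. Of this list, 6 of 8 tested were lower with SETBP1-D868N, with Jun at −0.85 and the signalling adaptor Tyrobp at −0.46. With PF-9363, 7 of 9 tested were higher, with Siglec1, listed as a relative of Siglech, at 2.94 and Jun at 1.57. The chemokines Ccl19 and Ccl21a, ligands of CCR7, had no count in any of the 14 libraries. Exons of Nfkb2, Cd274, Cd276, Traf5, Cd7, Runx2, Nectin2, Jun, Mpo and Csf1r overlap those of any 1 gene on the other strand over 3.86% to 15.1% of their length, and the strand handling of the counts is not given in the sources used here, so those values are less certain. Overlaps were larger for some genes that were only counted in the lists, such as Il4i1 (83.9%, with Tbc1d17), Jund (52.6%, with Gm11175) and Ccr9 (18.8%). Their calls are less certain too. Members share no exon with another gene of GENCODE M21.

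**Figure D5:**
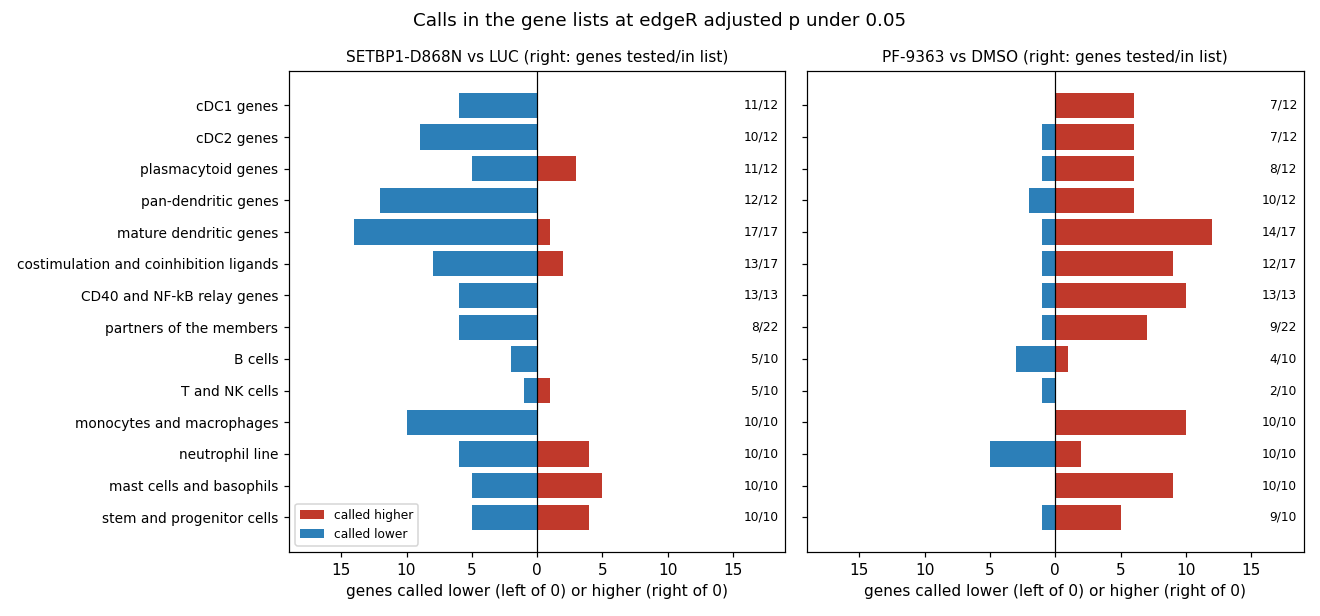
Number of genes called lower (left of 0) or higher (right of 0) at an edgeR adjusted p under 0.05 in each list, by comparison, with the number tested of the number in the list at the right. Most calls of the dendritic and macrophage lists lie left of 0 with SETBP1-D868N and right of 0 with PF-9363.

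Of 6 lists of markers of other cell types, the monocyte and macrophage list was called in the same direction as the members in both comparisons. Of 10 monocyte and macrophage markers, 10 were lower with SETBP1-D868N, where their summed level was 1401 to 1614 CPM against 2333 to 2492 CPM with luciferase. With PF-9363, 10 of 10 were higher, and the sum was 7400 to 8967 CPM against 1449 to 1647 CPM with DMSO. The largest changes were those of C1qa (−1.09) and C1qc (−0.99) in the first experiment and of Fcgr1 (5.0) and Mertk (3.35) in the second. The part of macrophages in the levels of the members was not tested. Mast cell and basophil markers were divided with SETBP1-D868N (5 higher and 5 lower), summing to 6268 to 6388 CPM against 5763 to 5981 CPM with luciferase. With PF-9363, 9 of those 10 were higher, at 4858 to 5834 CPM against 1248 to 1598 CPM with DMSO. Of 10 genes of the neutrophil line, 4 were higher and 6 lower with SETBP1-D868N, and 2 were higher and 5 lower with PF-9363. The largest of these changes with PF-9363 were the falls of the granule protease Elane (1453 ± 70.5 to 1.75 ± 1.49 CPM, −9.66) and of the peroxidase Mpo (2320 ± 304 to 6.35 ± 4.04 CPM, −8.49), and Ly6g (1.44) and Ltf (1.11) were higher. Of 9 stem and progenitor markers tested with PF-9363, 5 were higher and 1 lower, and they summed to 222 to 263 CPM against 106 to 123 CPM with DMSO. The part of these cell types in the levels of the members was likewise not tested. The B cell genes Ms4a1 and Ebf1 had no count in any library of the second experiment. Of 4 B cell markers tested with PF-9363, 3 were lower, among them Ighm (−4.20) and Cd79b (−6.71), and Blnk, which myeloid cells also express, was higher (3.78). T cell and NK cell markers summed to 3.81 to 4.34 CPM in the first experiment and 10.2 to 18.9 CPM in the second, where most of it was Cd247, whose exons overlap those of Pou2f1 on the other strand over 56.4% of their length.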

How the data were processed

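Polyadenylated RNA was sequenced from 14 libraries in 2 experiments, prepared from 500 ng of RNA with the Watchmaker kit in the first and from 100 ng by Novogene in the second, per the labels' protocols. Raw counts by gene symbol were deposited by the authors, 1 table per experiment, per the labels, and 0 columns were left unmapped. STAR, DESeq2 and the builds GRCm38 and mm10 are named, without versions or roles, in the submitters' processing notes. The counting program, annotation and strand handling are not given in the sources used here.

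Counts of each experiment were fitted separately in R 4.3.3 with edgeR 4.0.16 (filterByExpr with minimum count 10 and total 15, TMM scaling, robust glmQLFit, glmQLFTest on group), and p-values were adjusted by Benjamini-Hochberg over all genes tested. CPM are counts scaled to the TMM-adjusted total of the genes tested. Standard errors are the absolute log2 fold change over the square root of F. On simulated data with 200 genes changed 2-fold, 91.0% were recovered among 15794 genes of the first comparison and 88.0% among 13456 of the second comparison, and false calls made up 3.70% and 3.83%. In the data 47.2% and 76.0% of genes were called, so the simulation did not test the scaling under such wide change. Its shares need not hold for these comparisons. Alternatives were other scalings and filters, DESeq2 1.42.0, limma-voom (limma 3.58.1), no robust estimation, the replicate number as a block, and leaving out each library.

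All 10 members are named. From each list, up to 2 genes per direction were eligible, those with the largest absolute log2 fold change among called genes without overlap between groups whose higher group averaged 1 CPM or more. Xcr1, Ccl19, Ccl21a, Ms4a1 and Ebf1 were named for their low counts after these were seen, and 1 withheld item is not reported here. The members and lists were chosen with earlier results of these data known. Exon lengths, coordinates and overlaps come from GENCODE M21 (GRCm38), in which 53292 of 55367 symbols and all 10 members were found by symbol.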

Additional observations from a re-analysis of the deposited data

Results flagged for a closer look

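In groups of 4 libraries, single values set apart from the other 3 by most of the group's range were found in 4 of 19 groups checked. Chance gives about 1 in 20 for normally distributed values. Both groups of Cd209a held counts in a single library, which this rule always flags, so that rate does not apply to them. Ccr7 was 3.37 CPM in DMSO replicate 3, above 2.20 to 2.28 CPM in the other DMSO libraries, and still below every PF-9363 library. Fscn1 was 0.998 CPM in DMSO replicate 4, below 1.50 to 1.59 CPM in the others. Cd209a was 0.200 CPM in DMSO replicate 2 and 0.129 CPM in PF-9363 replicate 2, which are 2 and 1 counts where the other libraries held 0.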

How the results depend on the processing

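With SETBP1-D868N, 8 to 9 of the 10 genes were called lower under all 14 alternatives, the ninth being Cd209a, called with no robust estimation, without luciferase replicate 1 and without SETBP1-D868N replicate 3. With PF-9363, 7 to 8 were called higher under all 16 alternatives, the eighth being Zbtb46, which passed the filter when it was dropped and in 5 of 8 leave-one-out fits. No tested member changed direction or lost its call. With the replicate number as a block, 8 members were lower in the first experiment and 7 higher in the second, and the calls over all genes were 3416 higher and 3224 lower, and 4885 higher and 5239 lower. No pairing by number was seen: deviations of same-numbered libraries correlated at −0.23 to −0.041 and at −0.037 to 0.018, and 0 of 3 and 0 of 4 numbers correlated best with their own. With deviations taken from the means of only 3 or 4 libraries, this check cannot exclude a pairing. Without DMSO replicate 3, Cd83 (2.13) rose less than Ccr7 (2.42). Depth limits the second experiment, where DMSO libraries held 40 or fewer counts for each member.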

Other observations

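A set of 113 genes had no count in any library of the first experiment and at least 1 CPM in each library of the second. Of the 110 found in GENCODE M21, 105 (95.5%) overlap exons of a gene on the other strand, against 4417 of 11440 (38.6%) of all genes with at least 1 CPM in each library of the second experiment. One of them was Ackr4, a scavenger of the CCR7 ligands, at 0 counts in the first experiment and 10.3 ± 1.66 CPM with DMSO and 5.31 ± 0.514 CPM with PF-9363 (edgeR log2 fold change −0.96), whose exons overlap those of Acad11. Snx22, on the cDC1 list, overlaps Ppib over 28.5% of its exons. It stood at 0.149 CPM with luciferase and 0.152 CPM with SETBP1-D868N in the first experiment. In the second experiment, which was scaled separately, it stood at 104 CPM with DMSO. In the other direction, 9 genes had at least 1 CPM in each library of the first experiment and no count in the second, and 4 of these lie on chromosome Y.

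Blnk, an adaptor of the B cell receptor that myeloid cells also express, was lower with SETBP1-D868N (8.10 ± 0.220 to 4.85 ± 0.487 CPM, log2 fold change −0.74, edgeR adjusted p 1.95e-05). It was higher with PF-9363 (0.903 ± 0.445 to 12.7 ± 0.776 CPM, 3.78, edgeR adjusted p 4.90e-14), while Ighm, Cd79b and Vpreb1 of the same list were called lower.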
